A study of Arabidopsis thaliana with 6 samples.

Results

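In inflorescences of *bp er fil-10* plants, 79 named genes of intermediate signal were set apart by a clear gap below *bp er*: on every *bp er fil-10* array their signal lay well under the lowest *bp er* array. They included genes of pectin modification, small defence and stress proteins, hormone-responsive families, protein kinases and F-box proteins, lipases, and a few genes of the chloroplast and mitochondrial genomes. A gene was taken when its Affymetrix probe set matched 1 annotated gene, its mean signal in *bp er* was 200 to 5000, and its lowest *bp er* signal was at least 1.3 times its highest *bp er fil-10* signal. Of 22810 probe sets on the array, 64 were Affymetrix controls and 13513 had 1 annotated gene. In the signal range were 5810 of these, and 89 reached the gap. Counts of named genes below are counts of such probe sets, and some loci had several. The rule left out 15 loci by name, of which 10 reached the gap, and the remaining 79 genes are described here. All signals of both genotypes therefore chose these genes, and the differences below are a description of the choice, with no test of it.

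Total RNA came from inflorescences of 5-week-old *Arabidopsis thaliana* plants without buds later than stage 13, on 3 arrays of *bp er fil-10* and 3 of *bp er*. Both genotypes carry mutations in *BREVIPEDICELLUS* (*BP*), a KNOX homeobox gene, and in *ERECTA* (*ER*), a receptor-like kinase gene, and *bp er fil-10* has in addition the EMS-induced *fil-10* allele of *FILAMENTOUS FLOWER* (*FIL*), recovered in *bp er* seed and backcrossed to that line. No array was of wild type or of *fil-10* alone, and *bp er fil-10* is 1 mutant line, so *fil-10* and any other mutation kept near it cannot be told apart. The labels call the 3 arrays of each genotype biological replicates, and how many plants went into each RNA sample is not given in the sources used here. FIL is a YABBY transcription factor made on the abaxial side of young lateral organs and in floral meristems, and it takes part in organ polarity and flower formation. Pectin, the gel of the plant cell wall, is laid down methylesterified, is opened to calcium binding or to cutting by pectin methylesterases, and is then cut by pectate lyases and polygalacturonases, while proteinaceous inhibitors restrain the esterases. In the flower such enzymes are prominent in pollen, and the inflorescence RNA examined here mixes all floral organs, so that fewer cells of a type and less RNA per cell cannot be told apart.

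The signal is the MAS intensity on a linear scale, set by the authors to a target of 500 on each array. Array medians ran from 203 to 215 in *bp er fil-10* and from 193 to 211 in *bp er*. *FIL* and *BP* themselves had no probe set with a name here, so the genotypes were not checked against them. The tissue was checked only thinly, since 1 of 10 listed floral identity genes and no listed mature pollen gene had a named probe set. That gene, *UFO*, an F-box gene of young flowers, had signals of 5.8 to 9 in *bp er fil-10* and 7.10 to 53.3 in *bp er*. These were all under 100 and too low to read well, so no listed floral identity gene checked the tissue. *A9*, a gene of the anther tapetum, gave 6253, 6567 and 8187 in *bp er fil-10*, against 5567, 4735 and 4782 in *bp er*. Each *bp er fil-10* array was above every *bp er* array. *AMS*, the other tapetum gene that could be compared, gave 136, 135.5 and 99.1 in *bp er fil-10*, against 132, 129 and 117 in *bp er*, and the genotypes overlapped. The root genes *PYK10* and *EXPA7* did not pass 59.2 on any array of either genotype.

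Across the 79 genes the log2 difference, *bp er fil-10* minus *bp er*, had a median of -0.96 and ran from -5.59 to -0.49. The ratio of mean signals, *bp er* over *bp er fil-10*, had a median of 1.90 and ran from 1.40 to 18.5; it was at least 2 for 32 genes, at least 3 for 11, and under 2 for 47. The other 5731 named genes in the signal range had a median log2 difference of 0.06. Of all 5810 genes in range, 520 (8.95%) had every *bp er fil-10* array below every *bp er* array, 878 (15.1%) had every one above, and 89 (1.53%) reached the gap of 1.3 that defines the set, against 66 with the same gap in the other direction. Over the 14456 probe sets measured well enough for a fit, with or without a name, 1320 (9.13%) had every *bp er fil-10* array below every *bp er* array. These shares are given as the background of the rule. Within a genotype the log2 signals of the 79 genes had a median SD of 0.26, close to the 0.23 of the other genes in range. In 65 genes no signal of *bp er fil-10* was under 100, in 14 at least 1 was, and in 5 all 3 were. For these 14 the log2 difference is uncertain near the low end of the scale, and with signals under 100 raised to 100 it ran from -3.57 (AT5G47350) to -0.81 (AT5G59170). Raised in this way it was -1.40 for PRX52, -1.06 for OSM34, -1.63 for AT3G17060 and -1.27 for AT5G60610. It was -1.03 for AT3G45160, -1.19 for AT1G30710 and -1.20 for AT5G48540, against -1.82, -1.63 and -1.52 with the signals as deposited, in the same order of genes.

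**Figure D1:**
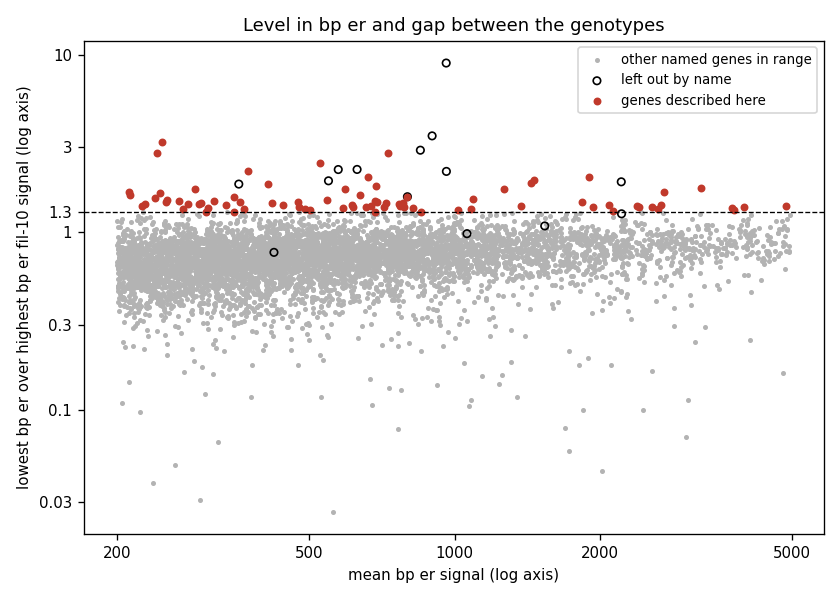
Mean *bp er* signal (x axis, log scale) and the lowest *bp er* signal over the highest *bp er fil-10* signal (y axis, log scale). Shown are the 5810 probe sets with 1 annotated gene in the signal range, 1 point per probe set. The 79 genes described (red) lie on or above the dashed line at 1.3, and open circles mark loci left out by name.

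Members close to the threshold differed little from genes just outside it. Inside, AT1G04350 had 114, 140.3 and 250 in *bp er fil-10*, against 348, 325 and 376 in *bp er*, a gap of 1.302. AT4G12340 gave 646, 589 and 589 in *bp er fil-10*, against 840.3, 868 and 850.5 in *bp er*, also a gap of 1.302. CYP71B6 had 439, 435 and 416 in *bp er fil-10*, against 669.5, 571 and 816 in *bp er*. Their *bp er fil-10* arrays stopped short of the *bp er* arrays by the same margin, although AT1G04350 varied far more within *bp er fil-10* than the others. Outside, AT4G31310 gave 197, 153 and 276 in *bp er fil-10*, against 517, 358 and 554 in *bp er*, a gap of 1.296. The chloroplast ATP synthase gene *atpF* had 1424, 1551 and 1366 in *bp er fil-10*, against 2693, 2005 and 2602 in *bp er*, a gap of 1.293. AT2G40270 gave 242, 228 and 229 in *bp er fil-10*, against 371, 328 and 312 in *bp er*, a gap of 1.292. Neither genotype overlapped the other in these genes either, and AT4G31310 had a larger ratio of mean signals, 2.28, than many of the genes inside.

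**Figure D2:**
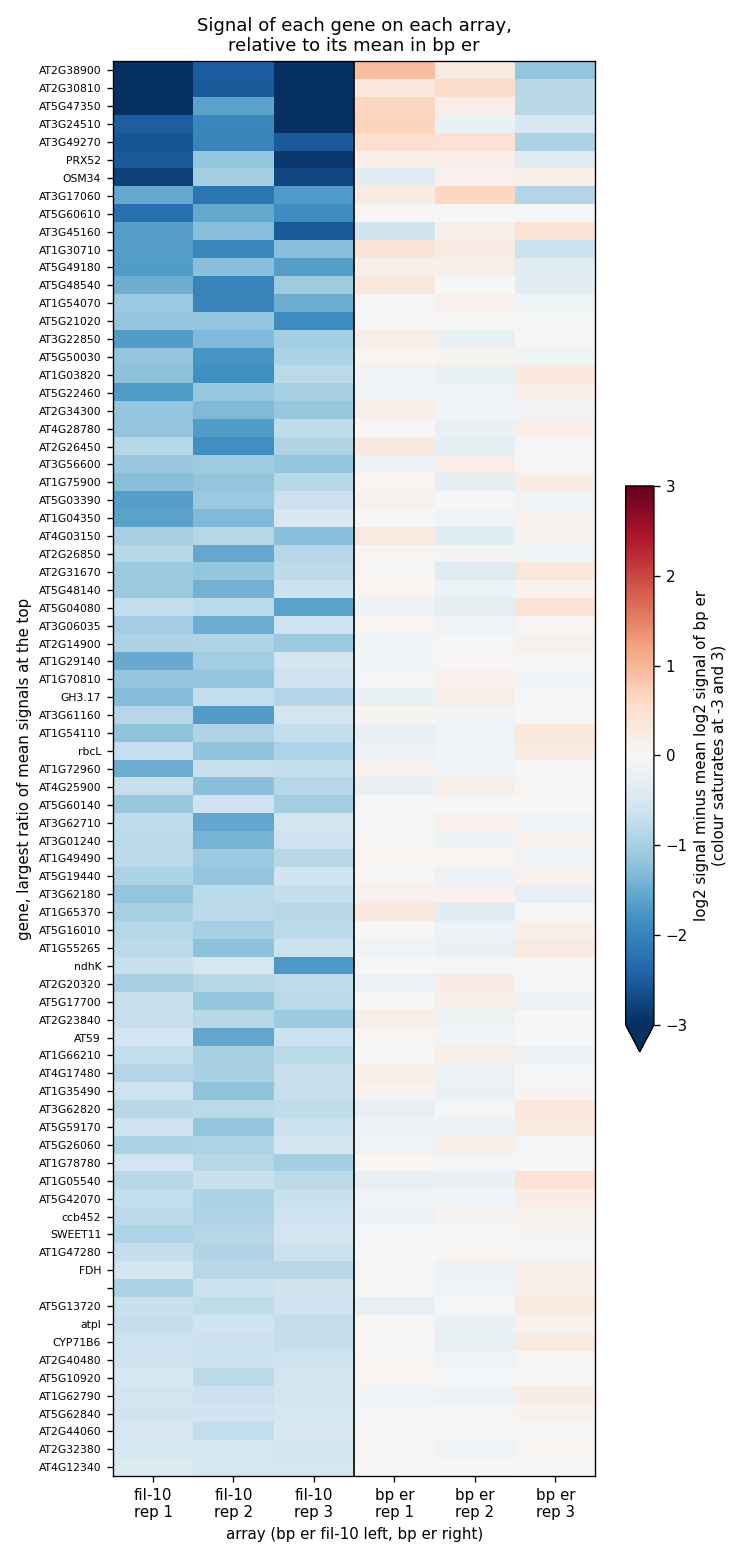
Log2 signal of each of the 79 genes (rows, from the largest ratio of mean signals at the top) on each of the 6 arrays (columns, *bp er fil-10* left and *bp er* right), minus the gene's mean log2 signal in *bp er*. A single row carries no name. Blue is lower, and the colour saturates at -3 and 3; the *bp er fil-10* columns are blue throughout, and the *bp er* arrays differ most in colour in the top rows.

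The genes that stood furthest apart included a protease inhibitor, a gibberellin-regulated protein, a defensin-like protein and genes with little known about them. AT2G38900, a serine protease inhibitor of the potato inhibitor I type, had 3.1, 79.2 and 3.2 in *bp er fil-10*, against 848, 536 and 195 in *bp er*. The mean signal was 28.5 in *bp er fil-10* and 526 in *bp er*. All its *bp er fil-10* signals were too low to read well, so its place at the head of the ratios (18.5) is not firm: the log2 difference of -5.59 became -2.16 with signals under 100 raised to 100, smaller in size than that of AT5G47350 (-3.57), AT3G24510 (-2.40) or AT3G49270 (-2.36). Array 2 of *bp er fil-10* was far above the other 2, and array 3 of *bp er* was lowest in its group. AT2G30810, a gibberellin-regulated family protein, gave 9.2, 40.1 and 6.5 in *bp er fil-10*, against 287, 328 and 128 in *bp er*. All its *bp er fil-10* signals were under 100, so the log2 difference of -4.10 became -1.20 with these raised. AT3G24510, a defensin-like protein, had 124, 177 and 53.3 in *bp er fil-10*, against 1089, 602 and 493 in *bp er*. The defensins are cysteine-rich peptides best known for antimicrobial activity, and no *bp er fil-10* array of this one passed 177. AT5G47350, which has no annotation here, gave 113, 824 and 73.7 in *bp er fil-10*, against 3912, 2856 and 1393 in *bp er*. Its *bp er fil-10* array 2 reached 824, several times the other 2, and its *bp er* array 3 was the lowest of that genotype. AT3G49270, of unknown function, had 288, 439 and 303 in *bp er fil-10*, against 2466, 2354 and 894 in *bp er*. The pattern was the same, with the lowest *bp er* signal still 2.04 times the highest of *bp er fil-10*.

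**Figure D3:**
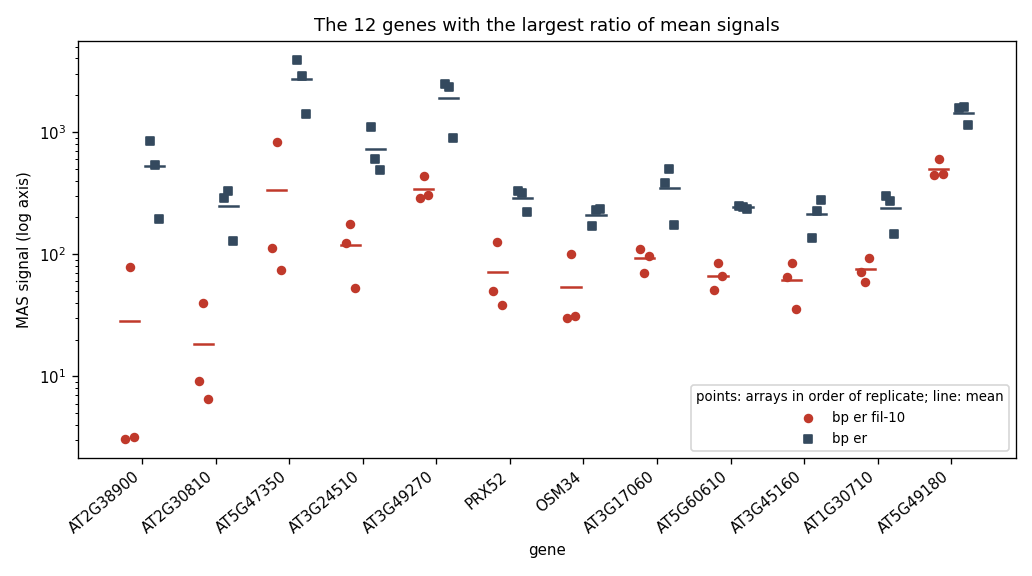
MAS signal (y axis, log scale) of the 12 genes with the largest ratio of mean signals (x axis), with *bp er fil-10* (circles) left of *bp er* (squares). Each point is 1 array in order of replicate and each line a mean; in most of these genes the middle circle, replicate 2, is the highest and the last square, replicate 3, the lowest.

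Other defence and stress genes followed, making 7 in all. PRX52, a class III peroxidase of the secreted kind that oxidises phenolics in the wall, gave 49.8, 127 and 38.4 in *bp er fil-10*, against 329.9, 317 and 223 in *bp er*. OSM34, an osmotin of the thaumatin-like pathogenesis-related proteins, had 30.1, 101 and 31.5 in *bp er fil-10*, against 169, 230 and 234 in *bp er*. In both, array 2 of *bp er fil-10* was highest and the other 2 were under 50, but the *bp er* array 3 was the lowest for PRX52 and the highest for OSM34. AT2G34300, an S-adenosylmethionine-dependent methyltransferase placed by the study among drought and salt genes, gave 295, 263 and 298 in *bp er fil-10*, against 757, 621 and 609.9 in *bp er*. AT2G31670 (*UP3*), a stress-responsive alpha-beta barrel protein, had 981, 936 and 1212 in *bp er fil-10*, against 2149, 1598 and 2648 in *bp er*. AT2G44060, named *LEA26* for the late embryogenesis abundant proteins that accumulate in drying tissue, gave 2649, 2267 and 2686 in *bp er fil-10*, against 3838, 3671 and 3782 in *bp er*. These last 3 were steadier, and AT2G44060 varied so little within each genotype (SD 0.0987 on the log2 scale) that a ratio of 1.49 still left a gap of 1.37. The listed phenylpropanoid and lignin genes could be compared for 3 of 20 only. All 3 had lower means in *bp er fil-10*, against 42.4% of all 7835 named genes compared. PRX52 alone had no overlap, against 8.55% of those genes, and the rule chose PRX52 for its gap. A comparison by defence-related words in symbols or synonyms took in 17 genes, with 1 of the 79 among them by the rule. Of the 17, 5 (29.4%) had every *bp er fil-10* array below *bp er*, against 8.55% of the 7835. In 3 every one was above, against 1131 of the 7835. The median log2 difference of the 17 was -0.06, and these counts do not test the family.

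Pectin-related genes formed a group of 6, with ratios of 1.81 to 3.77 and a median log2 difference of -1.25. Groups made by annotation can miss genes among the 34 of the 79 without one. The share of such groups over all genes in range was not counted. AT3G17060, in the pectin methylesterase class, had 110.3, 70.1 and 97.5 in *bp er fil-10*, against 379.6, 495 and 173 in *bp er*. AT5G49180, of the same class, gave 446, 601 and 456 in *bp er fil-10*, against 1583, 1603 and 1142 in *bp er*. AT2G26450, in this class as well, had 382, 191 and 364 in *bp er fil-10*, against 842, 566 and 665 in *bp er*. In each of these 3 the genotypes were separated on all arrays, as the rule required. AT5G50030, a member of the invertase and pectin methylesterase inhibitor family, gave 1421, 944 and 1685 in *bp er fil-10*, against 3347, 3397 and 2973 in *bp er*. AT5G48140, classed with pectate lyases and polygalacturonases, had 889, 719.6 and 1239.8 in *bp er fil-10*, against 2019.6, 1706 and 2084 in *bp er*. AT59 (AT1G14420), a pectate lyase known from pollen, gave 517, 264 and 495 in *bp er fil-10*, against 808, 725 and 782 in *bp er*. In 5 of the 6 genes array 2 of *bp er fil-10* gave the lowest signal; AT5G49180 was the exception, with array 2 highest. Set beside them, AT1G29140, a pollen Ole e 1 allergen and extensin family protein, had 1393, 1944 and 2719.7 in *bp er fil-10*, against 3774, 4096 and 4102 in *bp er*. In it array 1 of *bp er fil-10* was lowest and the *bp er* arrays lay close together. Genes picked by wall-related words in their symbols or synonyms, of which 31 could be compared, included none of the 79. The 6 pectin-related genes above were thus outside this comparison, and 68 of the 79 genes are named only by locus. Of the 31, 4 had every *bp er fil-10* array below *bp er*, against 8.55% of all 7835 named genes compared. In 2 every one was above, against 1131 of the 7835. The median log2 difference of the 31 was -0.09.

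**Figure D4:**
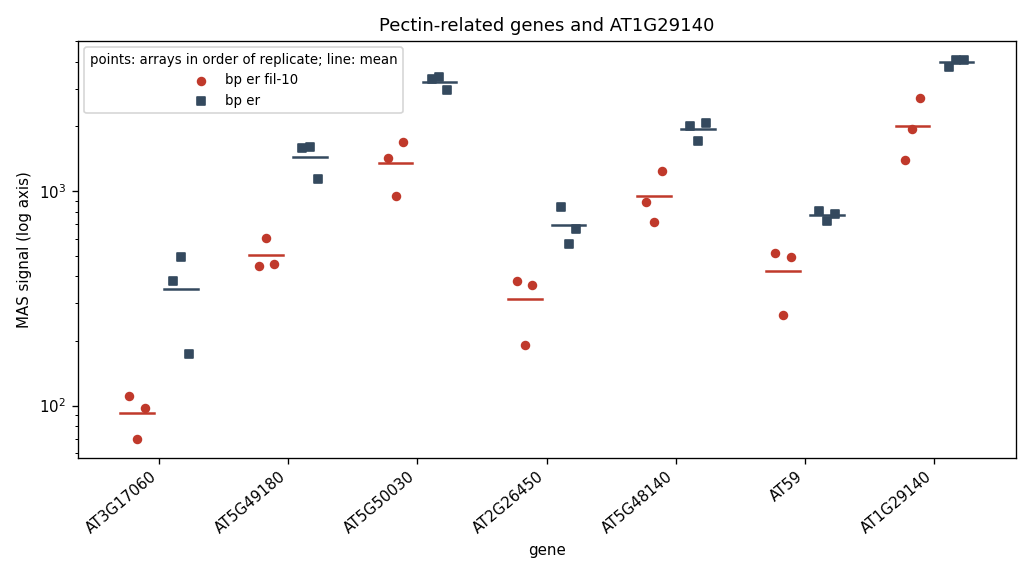
MAS signal (y axis, log scale) of the 6 pectin-related genes and AT1G29140 (x axis), with *bp er fil-10* (circles) left of *bp er* (squares). Each point is 1 array in order of replicate and each line a mean; replicate 2 of *bp er fil-10* is the lowest circle in 5 of the 6 pectin-related genes.

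Hormone-responsive families gave 6 genes, AT2G30810 among them. AT2G14900, a further gibberellin-regulated family protein, gave 649.7, 676 and 581 in *bp er fil-10*, against 1184, 1237 and 1370.4 in *bp er*. Unlike AT2G30810 it was readily measured on every array, and its within-genotype SD was 0.111. AT1G54070, of the dormancy and auxin associated family, had 672, 372 and 519 in *bp er fil-10*, against 1474, 1586 and 1322 in *bp er*. AT3G22850, an aluminium-induced protein filed with auxin-responsive genes, gave 183, 234 and 292 in *bp er fil-10*, against 677, 513 and 588 in *bp er*. GH3.17, an enzyme of the family that joins auxin to amino acids, had 120.5, 178 and 161 in *bp er fil-10*, against 259.6, 336 and 298 in *bp er*. These 3 had ratios of mean signals between 1.95 and 2.80, and the rule allowed no overlap between genotypes. Of the 3 *GH3* genes that could be compared, GH3.17 was the only one with a lower mean in *bp er fil-10*. GH3.3 had 1524, 2251 and 1126 in *bp er fil-10*, against 990.2, 1656 and 1040.4 in *bp er*, and the genotypes overlapped. The last of the 6, AT1G04350, a 2-oxoglutarate and iron dependent oxygenase placed with ethylene synthesis, is the gene at the threshold given above.

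Protein kinases and genes of protein turnover also numbered 6, of which 5 are given here. F-box proteins choose substrates for SCF ubiquitin ligases, and AT5G60610, an F-box/RNI-like protein, gave 50.5, 84.0 and 66.1 in *bp er fil-10*, against 247, 243 and 235 in *bp er*. Its *bp er* signals lay close together, and every *bp er fil-10* signal was under 100. AT2G26850, the other F-box gene, had 357, 220.4 and 349 in *bp er fil-10*, against 656, 677 and 577 in *bp er*. Both F-box genes were separated between the genotypes on all arrays, as the rule required. A comparison by ubiquitin and F-box words in symbols or synonyms took in 50 genes, with 1 of the 79 among them. Of the 50, 5 (10%) had every *bp er fil-10* array below *bp er*, against 8.55% of all 7835 named genes compared. In 4 every one was above, against 1131 of the 7835. The median log2 difference of the 50 was -0.02. AT5G48540, a receptor-like protein kinase-related protein, gave 87.3, 60.0 and 114 in *bp er fil-10*, against 305, 243 and 189 in *bp er*. AT3G56600, a protein kinase superfamily gene placed with phosphoinositide signalling, had 186, 196 and 181 in *bp er fil-10*, against 367, 469.6 and 396 in *bp er*. AT3G61160, likewise of the protein kinase superfamily, gave 1419, 807 and 1741 in *bp er fil-10*, against 2716, 2424 and 2570.5 in *bp er*. In AT3G61160 *bp er fil-10* array 2 was well below arrays 1 and 3.

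Lipases and related hydrolases were represented by 3 genes, with a lipid-binding protein beside them. The GDSL enzymes are esterases that act on lipids of the cuticle, the pollen coat and other surfaces, and AT4G28780, a GDSL-like lipase, had 208, 147 and 275 in *bp er fil-10*, against 473, 407 and 539.5 in *bp er*. AT1G75900, also GDSL-like, gave 749.6, 802 and 1017 in *bp er fil-10*, against 1881, 1498 and 2127 in *bp er*. AT5G22460, an alpha/beta hydrolase, had 211, 313 and 344 in *bp er fil-10*, against 650, 625 and 786 in *bp er*. In all 3 genes *bp er* array 3 was the highest of its genotype and *bp er fil-10* array 3 the highest of its own. AT1G70810, a calcium-dependent lipid-binding protein that the study filed under unclassified transcription genes, gave 112, 113 and 163 in *bp er fil-10*, against 244, 275 and 239 in *bp er*. None of the other genes with an annotation was filed as a transcription factor.

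Sugar transport and redox metabolism supplied further single genes. SWEET11, which exports sucrose toward the phloem, had 1259.9, 1326 and 1636 in *bp er fil-10*, against 2296, 2334 and 2528 in *bp er*. Among 12 *SWEET* genes compared, 3 had every *bp er fil-10* array below *bp er*, where 8.55% of all 7835 named genes compared did. SWEET11 was among the 3 by the rule, and the family was picked after the values were seen. The comparison therefore does not test the family. SWEET14 was another, with 244, 255 and 443 in *bp er fil-10*, against 543, 527 and 504 in *bp er*, and it missed the gap. SWEET8, needed for pollen wall formation, went the other way, with 2207, 2817 and 3019.6 in *bp er fil-10*, against 1638, 1705 and 1651 in *bp er*. The family therefore held members on both sides. AT1G30710, a berberine bridge-type FAD oxidase, gave 72.1, 59.5 and 93.9 in *bp er fil-10*, against 301, 273 and 145 in *bp er*. FDH, the mitochondrial formate dehydrogenase, had 2554, 2126 and 2125 in *bp er fil-10*, against 3631, 3389.5 and 4363 in *bp er*. The mean signals of FDH were 2268 ± 247 in *bp er fil-10* and 3794 ± 507 in *bp er* (SD, n = 3 each). CYP71B6, a cytochrome P450, is given with the threshold genes. Of 7 *CYP71B* genes compared, 6 had lower means in *bp er fil-10* and 2 of these had no overlap. The shares of all named genes compared were 42.4% and 8.55%. CYP71B6 was in both *CYP71B* counts by the rule, and this family too was picked after the values were seen. These counts therefore do not test the family either.

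Genes encoded in the organelles made up 4 of the 79. The cDNA was primed with oligo dT, and how well this reads organelle transcripts was not tested. The large subunit of Rubisco, *rbcL*, gave 1658, 1154 and 1390.3 in *bp er fil-10*, against 2369, 2528 and 3152 in *bp er*. Next, *ndhK*, a subunit of the chloroplast NDH complex, had 388, 424 and 186 in *bp er fil-10*, against 608, 602 and 627 in *bp er*. Also of the plastid, *atpI* of the ATP synthase membrane sector, gave 185, 202 and 181 in *bp er fil-10*, against 318, 263 and 334 in *bp er*. Array 3 of *bp er fil-10* set *ndhK* apart, far below either other array of that genotype, while the *bp er* arrays lay close together. The mitochondrial *ccb452*, named for cytochrome c biogenesis, had 281, 255 and 316 in *bp er fil-10*, against 429.6, 516 and 524 in *bp er*, read by the only probe set of the 79 whose design allows several matching transcripts. Most of the chloroplast genome lay on the same side without reaching the gap. Of 66 plastid genes compared, 62 (93.9%) had a lower mean in *bp er fil-10*, and the median log2 difference was -0.35. In 28 (42.4%) every *bp er fil-10* array was below every *bp er* array, and in 1 every one was above. Over all 7835 named genes compared, 42.4% had a lower mean, 8.55% had every array below, 1131 had every one above, and the median was 0.07. The 3 plastid genes given above were among the 28 by the rule. The comparison was chosen with earlier results of these data known, so these counts do not test the plastid genome. Of 27 listed photosynthesis genes only 5, all of them nuclear, could be compared. All 5 had lower means in *bp er fil-10*, 4 of them without overlap. That list too was chosen with earlier results known, and its other genes were not seen, so the counts do not describe the pathway as a whole. SBPASE, a Calvin cycle phosphatase, had 4099, 2801 and 4216 in *bp er fil-10*, against 6889, 6669.9 and 7358 in *bp er*. PRK, the phosphoribulokinase of the same cycle, had 6944, 5248 and 7276 in *bp er fil-10*, against 9296, 9225 and 9706 in *bp er*. Both lay above the signal range of the rule.

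Genes filed as of unknown function gave 7 of the 79, AT3G49270 among them. AT5G21020 gave 168, 165 and 101 in *bp er fil-10*, against 372, 372 and 374 in *bp er*. Its *bp er* arrays were nearly equal, and array 3 of *bp er fil-10* was the lowest of its genotype. AT1G03820 had 228, 149.5 and 306 in *bp er fil-10*, against 497, 464 and 672 in *bp er*. AT3G06035, annotated as a GPI-anchored glycoprotein, gave 1016, 751 and 1370.1 in *bp er fil-10*, against 2176, 1946 and 2158 in *bp er*. AT5G03390, with a domain of unknown function, had 134, 192 and 266 in *bp er fil-10*, against 451, 416 and 388 in *bp er*. In these 3 genes array 3 of *bp er fil-10* was the highest of its genotype. AT4G03150 gave 302, 337 and 253 in *bp er fil-10*, against 730.2, 469 and 652 in *bp er*. AT5G04080 had 185, 173 and 99.7 in *bp er fil-10*, against 271, 251 and 404 in *bp er*. In these last 2, by contrast, array 3 was the lowest of *bp er fil-10*.

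A further 34 genes had no annotation in the sources used here and are named by locus where their own values are given and otherwise covered by a range. Annotations came largely from lists of changed genes that the study drew from these same arrays, and the genes without one had ratios with a median of 1.81, against 1.90 for all 79. AT3G45160 gave 64.6, 84.2 and 35.6 in *bp er fil-10*, against 136, 227 and 276 in *bp er*, and it and AT5G47350 were the only genes of the 34 among the 12 largest ratios. AT3G01240 had 2768, 1857 and 3146 in *bp er fil-10*, against 4971, 4389 and 5208 in *bp er*. Beside AT3G01240 and AT5G47350, 6 of the 34 averaged at least 1000 in *bp er*. AT5G19440 gave 1352, 1151 and 1732 in *bp er fil-10*, against 2689, 2335 and 2896 in *bp er*. AT3G62180 had 1062, 1366 and 1461 in *bp er fil-10*, against 2607, 2606 and 2016 in *bp er*. AT3G62710 gave 806, 468 and 918 in *bp er fil-10*, against 1341, 1494 and 1284 in *bp er*. Replicate 2 was the lowest *bp er fil-10* array for AT5G19440 and AT3G62710, and replicate 1 for AT3G62180. AT5G16010 had 602, 545 and 618 in *bp er fil-10*, against 1084, 954 and 1233 in *bp er*. AT1G35490 gave 701, 467 and 668 in *bp er fil-10*, against 1170, 939 and 1143 in *bp er*. AT1G62790 had 684, 649 and 682 in *bp er fil-10*, against 952, 912 and 1188 in *bp er*. In these too replicate 2 was the lowest *bp er fil-10* array. The other 25 of the 34 averaged 126 to 608 in *bp er fil-10* and 225 to 853 in *bp er*, with ratios of 1.40 to 1.93. Several of these were read with little spread. AT2G40480 gave 217, 215 and 218 in *bp er fil-10*, against 347, 309 and 351 in *bp er*. AT2G32380 had 188, 188 and 186 in *bp er fil-10*, against 279, 255 and 286 in *bp er*. AT5G62840 gave 312, 315 and 329 in *bp er fil-10*, against 456, 459.7 and 509 in *bp er*. AT4G12340, AT2G32380 and AT5G62840 had the smallest within-genotype SDs of the set, 0.0565 for AT4G12340, 0.0622 for AT2G32380 and 0.0694 for AT5G62840, and small ratios of 1.40 to 1.49 then sufficed for the gap. The largest SDs belonged to AT2G38900 (2.05), AT5G47350 (1.42) and AT2G30810 (1.11).

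The order of the replicates was counted within each genotype. Replicate 2 was the highest *bp er fil-10* array in 10 of the 12 genes with the largest ratios and replicate 3 the lowest *bp er* array in 10 of the 12. Among the other 67 genes, replicate 2 was highest in *bp er fil-10* in 10 and lowest in 34, and replicate 3 was lowest in *bp er* in 13 and highest in 33. For the 5731 other named genes in range, replicate 2 was the highest *bp er fil-10* array in 34.5% and replicate 3 the lowest *bp er* array in 39.1%. The gap was thus narrowest, in most of the 12, between replicate 2 of *bp er fil-10* and replicate 3 of *bp er*. In 10 of the 12, however, at least 1 *bp er fil-10* signal was under 100, where array order and rank are uncertain. Signals under 100 were then raised to 100 and the genes ranked by log2 difference in place of the ratio of mean signals, so the measure changed too. In that ranking 7 of the 12 remained among the first 12. Replicate 2 was highest in *bp er fil-10* in 5 of the new 12, and replicate 3 lowest in *bp er* in 9. These counts use the signals that chose the genes and are a description.

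**Figure D5:**
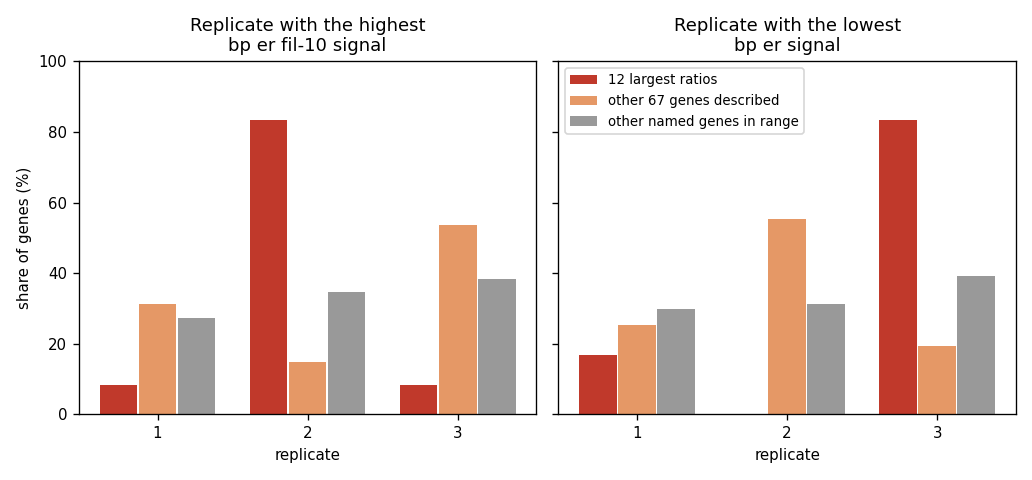
Share of genes (y axis, %) in which each replicate (x axis) gave the highest *bp er fil-10* signal (left) or the lowest *bp er* signal (right), for the 12 genes with the largest ratios, the other 67 genes described and the other named genes in range. Replicate 2 (left) and replicate 3 (right) take 83.3% each in the 12 genes, against 14.9% and 19.4% in the other 67, but 10 of the 12 have a *bp er fil-10* signal under 100, where the order is uncertain.

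Each gene's log2 signals were also centred on the mean of each genotype and compared over the 6 arrays with those of AT59 and AT5G47350, which were chosen after their values were seen. With AT59, in which replicate 2 of *bp er fil-10* was low, 22 of the other 78 genes correlated above 0.7, and AT2G44060 (0.99), AT5G10920 (0.98), AT3G61160 (0.95), AT2G26450 (0.94) and AT3G01240 (0.94) were most alike. The same limit was passed by 7.17% of the other named genes in range, against 28.2% of the 78. AT5G60140 (-0.99), OSM34 (-0.98), AT2G38900 (-0.91) and PRX52 (-0.91) deviated in the opposite sense, and below -0.7 there were 7 of the 78 (8.97%), against 7.54% of the other genes. With AT5G47350, 8 of the 78 (10.3%) correlated above 0.7, against 10.4% of the other named genes in range, and 22 (28.2%) below -0.7, against 10.7%. These correlations rest on 6 arrays that all genes share, 3 per genotype, and are given without a test.

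In position the 79 genes were spread over the nuclear chromosomes, with 20, 14, 13, 6 and 22 on chromosomes 1 to 5, apart from the 4 organelle genes. Genes of the signal range numbered 1495, 852, 1198, 805 and 1408 on the same chromosomes. No pair of members had fewer than 3 protein-coding genes between them; the closest were AT1G54070 and AT1G54110, with 4 between, and AT3G62710 and AT3G62820, with 10.

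The fit took in the 14456 probe sets that reached a signal of 100 on 3 or more arrays, and limma called 1 probe set lower (0.00692%) at an adjusted p under 0.05 and none higher, and 0 of the 79 genes, while 1021 probe sets were lower at an unadjusted p under 0.05. All 79 were in the fit, each with an unadjusted p under 0.05, and their adjusted p-values in limma ran from 0.0590 to 0.211. With the replicate number as a block, limma called 308 probe sets lower (2.13%) and 232 higher (1.6%), and 55 of the 79 genes; the adjusted p-values of the 79 in limma then ran from 0.00593 to 0.182. The smallest of these belonged to AT3G24510, AT3G49270 and AT5G49180. Since the same signals chose the genes, neither count bears on whether they differ.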

How the data were processed

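RNA from inflorescences was hybridised to 6 Affymetrix ATH1 arrays, 3 of *bp er fil-10* and 3 of *bp er*. The authors used GCOS to obtain the MAS signal intensity of each probe set, and a linear factor set every array to a target of 500; its version and the annotation build are not given in the sources used here, and the deposited intensity is linear, without detection calls. Gene names came from the platform annotation and RefSeq, matched by locus, and annotations from the study's gene lists. The genes and lists were chosen with earlier results of these data known.

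Signals were converted to log2 after raising signals under 0.1 to 0.1. Probe sets with a signal of 100 or more on 3 of the 6 arrays were fitted with limma 3.58.1 (lmFit, eBayes with an intensity trend) in R 4.3.3, without a block; tests were 2-sided and p-values were adjusted by Benjamini and Hochberg's method for 14456 probe sets. The fit was tested on simulated data. Replicate numbers were shared between genotypes, and the correlations of the same-numbered arrays' deviations from their genotype means were 0.10, 0.22 and 0.38, each above 0.1, so the numbers were also used as a block. Differently numbered arrays gave 0.2248 (*bp er fil-10* 1 with *bp er* 2), above the 0.1029 and 0.2210 of same-numbered arrays 1 and 2. They gave 0.18 (2 with 1), above the 0.1029, and -0.33 to -0.21 otherwise. Only for replicate 3 was the same-numbered value above every differently numbered value of its arrays. This pairing comes from the arrays' numbers and values and not from a stated shared day or batch. Counts, medians and array orders were computed in Python 3.11.15 with pandas 2.3.3.

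Genes named were the 12 with the largest ratios, members of each list, those nearest the threshold and those with the smallest and largest spread; all annotated genes and SWEET8, SWEET14, GH3.3 and the symbol families were added after their values were seen. Alternatives were another gap, signal limit, scaling, filter or block, and leaving out single arrays. Promoter and protein sequences and scan dates were not used here. Of the 79 genes, 1 with an annotation is not reported here by name, and part of those without one are given only by range.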

Additional observations from a re-analysis of the deposited data

How the results depend on the processing

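The number of genes depended on the gap: 142 met the rule with a gap of 1.2, 28 with 1.5 and 7 with 2. It was 63 with a minimum *bp er* mean of 300, 86 with no maximum, 111 after quantile normalization (all 79 among them) and 104 after median scaling (74 among them). Leaving out 1 array at a time gave 106 to 250 genes, and 77 to 79 of the 79 were among them. The count was 250 without *bp er fil-10* replicate 3, 161 without *bp er* replicate 3 and 138 without *bp er* replicate 2. Leaving out an array cannot narrow a gap, so only the limits on the *bp er* mean could remove a gene. These counts therefore could not fall through the gap, and they do not test how stable the set is. With both replicate 3 arrays left out, an alternative added after the data were seen, the count reached the limit of 300 set by the rule, with 64 of the 79 among the 300 largest ratios. The median log2 difference of the 79 stayed between -1.02 and -0.88 under every alternative run.

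With the replicate block, limma called 55 of the 79 genes and 308 of all probe sets lower, against 0 and 1 without it. Leaving out 1 array gave 0 to 19 of the 79 and 1 to 82 of all. Without *bp er fil-10* replicate 3 the counts were 19 and 82, without *bp er fil-10* replicate 2 they were 1 and 7, without *bp er* replicate 3 they were 2 and 8, and without *bp er fil-10* replicate 1 they were 0 and 2. A minimum mean signal of 200 gave 0 of 69 genes and 5 of all probe sets, and no filter, quantile normalization or no intensity trend left 0 and 1. The causes were not tested. The number of genes with replicate 2 lowest in *bp er fil-10* was 36, and 41 and 43 after quantile normalization and median scaling; *bp er* replicate 3 was lowest in 23, 20 and 17 and highest in 35, 35 and 44. For the 12 largest genes, signals under 100 were raised to 100 and genes ranked by log2 difference, an alternative added after the data were seen. The count with replicate 2 highest in *bp er fil-10* was then 5, against 10. That with replicate 3 lowest in *bp er* was 9, against 10. With 3 arrays per genotype and no detection calls, signals under 100 give only a rough level.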
